A study of Homo sapiens with 4 samples.

Results

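The MYC network genes *MYC*, *MYCN*, *MAX*, *MXI1*, *MXD4*, *MNT* and *MGA*, the MYC target *ODC1* and the RNA-binding protein gene *LIN28B* were examined in the RNA-seq of SK-N-SH cells, a human neuroblastoma line. The 9 genes were chosen by symbol from the 57820 genes in the table of counts, and each symbol matched 1 gene identifier. All 9 passed the filter on low counts that left 20528 genes for testing. The cells were compared in 2 conditions with 2 libraries each. Vector control cells received a lentivirus with no insert, and *RP5-998N21.4* OE cells received a lentivirus with the cDNA of the long noncoding RNA *RP5-998N21.4* under the EF1a promoter. Titles of the control libraries read WT, but their treatment label gives the empty vector, so all 4 libraries came from transduced cells of a single line. Nothing states whether the 2 libraries of a condition came from separate cultures, so the p-values measure the spread between libraries, which may be technical.

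MYC and MYCN are transcription factors that drive growth and metabolic genes. They bind DNA as a heterodimer with MAX, preferably at the E-box letters CACGTG, and MXI1, MXD4, MNT and MGA compete for MAX and mostly repress the same kind of site. In neuroblastoma, amplification of *MYCN* marks aggressive tumors, and SK-N-SH is a line without that amplification. LIN28B blocks the maturation of let-7 microRNAs, and let-7 in turn represses *LIN28B* and growth genes. *ODC1* encodes ornithine decarboxylase, the enzyme that starts polyamine synthesis and a classic MYC target.

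The vector control libraries held 23785164 and 24098041 counts, and the OE libraries 24601728 and 28307591. *RP5-998N21.4* had 32 and 33 counts in vector control libraries, against 2407 and 2808 in OE (log2 fold change 6.11, adjusted p = 0.0109, edgeR's test). Of the 11 adrenergic neuroblastoma markers, 10 were tested (*TH* had 0 counts in every library). Their summed level was from 677 to 754 CPM (counts scaled to the library size, TMM-normalized) in the vector control and from 1091 to 1161 CPM in OE, and 7 were higher and 0 lower in OE at an unadjusted p under 0.05 (70% beside 20.8% of all tested genes). All 8 mesenchymal markers were tested, with 1 higher and 4 lower (62.5%), at a summed level from 2705 to 2928 CPM in the vector control and from 2314 to 3269 CPM in OE. The upper end in OE holds a high value of *VIM*, named after its values were seen, which was at 1254 CPM in OE replicate 1, at 376 CPM in OE replicate 2 and at 348 and 350 CPM in the vector control. The libraries therefore differed in markers of neuroblastoma state along with every result below, and the part of this in the results was not tested. In bulk RNA, fewer cells of a type and less RNA per cell cannot be told apart. Of 8 markers of other cell types, 3 passed the filter, with summed levels from 1.32 to 3.11 CPM, and *ALB*, *CDH5* and *HBB* had 0 counts in every library.

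The differences are read against sequence features of the genes. Sites of *ODC1* and *LIN28B*, known targets of MYC and of let-7, are shown first. The transcript that held nearly all counts of *ODC1* (ENST00000234111, minus strand) has a pair of E-boxes in its intron near the start, at positions 287 and 321 from the start site. They lie at chr2:10588153-10588176 and chr2:10588119-10588142 of hg19, and the capitals mark the E-box.
ODC1 E-box at 287: ggccccgggCACGTGtgcggcgcg
ODC1 E-box at 321: ctgcggagaCACGTGgtcgccgag
Among 19123 tested genes with a start site in the annotation, 14.3% had at least 1 CACGTG in the first 1000 bases after the start and 1.52% had at least 2. CACGTG reads the same on both strands. *MNT* had 1 in this window, at position 416 in an exon, and the other 7 genes had none in their highest counted transcript.

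The mature let-7 microRNAs share 1 seed, bases 2 to 8. All 9 distinct mature 5p sequences of the let-7 and miR-98 hairpins in RefSeq (build GRCh38.p14) have it. Shown are let-7a and the member that starts with another base, with the seed in capitals.
hsa-let-7a-5p: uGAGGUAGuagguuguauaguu
hsa-let-7d-5p: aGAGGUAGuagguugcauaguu
LIN28 proteins are known to bind the letters GGAG in the loop part of let-7 precursors, and 9 of the 12 hairpins hold GGAG outside their mature arms. The let-7g hairpin is an example with GGAG, and the let-7a-3 hairpin is an example without it.
MIRLET7G: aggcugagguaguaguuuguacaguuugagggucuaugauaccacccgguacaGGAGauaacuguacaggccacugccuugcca
MIRLET7A3: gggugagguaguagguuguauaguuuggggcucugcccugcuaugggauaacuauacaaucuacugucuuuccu
The 3′ UTR of the *LIN28B* transcript, 4549 bases long, holds 4 matches to the let-7 seed (CTACCTC), which are shown in capitals with the bases that would face the microRNA. They lie on the plus strand of hg19 at chr6:105526688-105526709, chr6:105529115-105529136, chr6:105529297-105529318 and chr6:105530736-105530757, in this order.
LIN28B site 1: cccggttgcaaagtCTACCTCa
LIN28B site 2: actgatgatagtaaCTACCTCt
LIN28B site 3: tttacagcaaaaggCTACCTCa
LIN28B site 4: aatgatggtgttgaCTACCTCt
Of 11634 protein-coding tested genes with a 3′ UTR, 11.4% had at least 1 such match and 8 genes (0.0688%) had 4 or more. The median 3′ UTR was 1410 bases long, shorter than that of *LIN28B*. The highest counted transcript of each of the other 8 genes had no CTACCTC in its 3′ UTR, and transcripts with fewer counts were not all searched.

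*MYC* (ENSG00000136997.10, plus strand, chr8:128747680-128755197 of hg19) was the member with the widest spread. It had 282 and 861 counts in vector control libraries, against 2714 and 1403 in OE. On the CPM scale the libraries were at 12.1 and 36.6 in the vector control and at 108 and 48.5 in OE. Both OE libraries were above both vector control libraries, but the vector control libraries differed 3.03-fold and the OE libraries 2.23-fold between themselves. Mean levels were 24.4 ± 17.3 CPM for the vector control and 78.3 ± 42.2 CPM for OE (SD, n = 2 each). The log2 fold change was 1.68 (SE, standard error, 0.728, with adjusted p = 0.304, quasi-likelihood test of edgeR, Benjamini-Hochberg adjusted over all tested genes), with a 95% interval from -0.39 to 3.76. It was 2.69 without vector control replicate 2, where the unadjusted p was 0.0336, and 0.99 without OE replicate 1.

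*MYC* counts did not sit on the same transcript in every library. In both vector control libraries and in OE replicate 2, all counts were on ENST00000259523.6, a transcript of 2042 bases with an annotated coding part of 771 bases. In OE replicate 1, all 2714 counts were on ENST00000377970.2, which has 2351 bases and a coding part of 1317 bases. The other transcript had 0 counts in each case. For counting error alone, this allows at most 1.06% of the placed counts in vector control replicate 1 and at most 0.111% in OE replicate 1. It sets no limit on the share of that transcript in the cells, because how reads of shared bases were placed is not known. The transcripts share 1392 exonic bases, 650 bases are in ENST00000259523 alone, and 959 bases are in ENST00000377970 alone. The highest *MYC* value therefore belongs to the library counted on another stretch of the gene, and a change in *MYC* cannot be told apart from the placement of its reads. Restricted to its transcript of highest mean count, *MYC* had counts in 1 library only and was not tested.

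**Figure D1:**
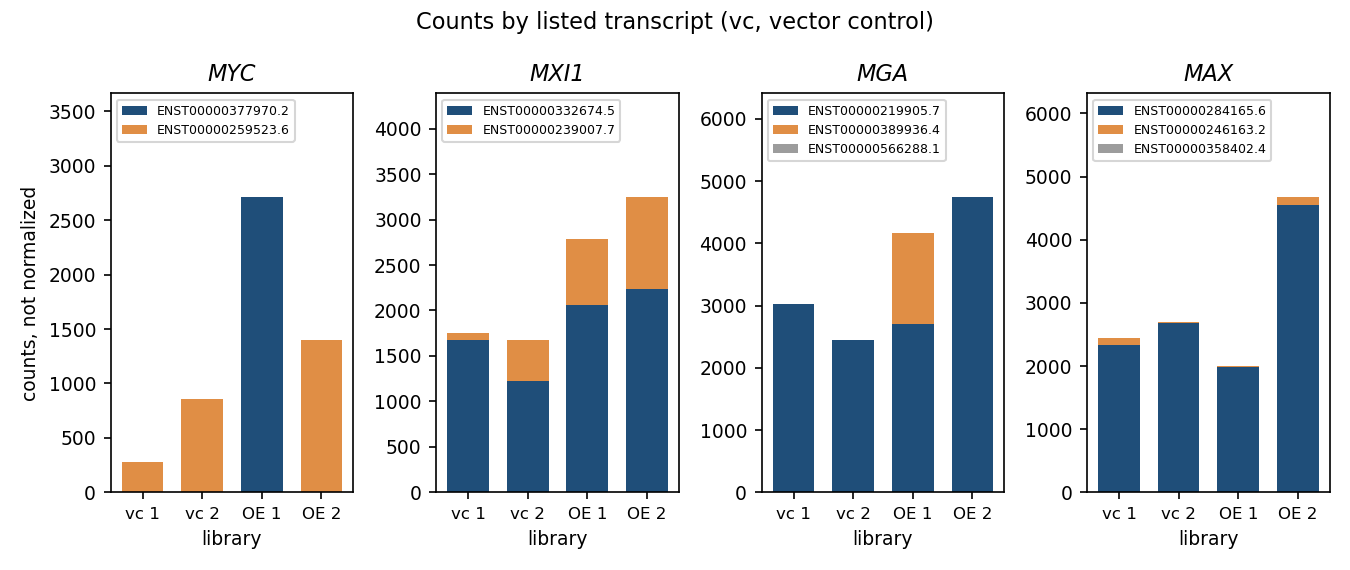
Counts, not normalized, of *MYC*, *MXI1*, *MGA* and *MAX* in each library (vc, vector control), stacked by listed transcript. The *MYC* counts of OE replicate 1 (2714) lie on a transcript with 0 counts in the other 3 libraries.

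*MYCN* (ENSG00000134323.10, plus strand, chr2:16080672-16087129) was at 22 and 18 counts in vector control libraries, against 30 and 35 in OE, all on its only listed transcript. These are 0.945 and 0.766 CPM against 1.20 and 1.21 CPM, so that both OE libraries were above both vector control libraries. OE over vector control gave a log2 fold change of 0.49 (SE 0.295, adjusted p = 0.428 in edgeR's test), and its 95% interval from -0.35 to 1.33 includes no change. The antisense gene *MYCNOS*, which overlaps *MYCN*, had at most 8 counts in a library. The strand setting of the counting is not given in the sources used here, so reads of overlapping opposite-strand genes cannot be told apart.

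*MAX* (ENSG00000125952.14, minus strand, chr14:65472892-65569413) encodes the partner of MYC, MYCN and their antagonists. It had 2439 and 2703 counts in vector control libraries, against 2005 and 4678 in OE. Its libraries were at 105 and 115 CPM in the vector control and at 79.9 and 162 CPM in OE, so the OE libraries lay on either side of the vector control. The log2 fold change was 0.14 (SE 0.378, adjusted p = 0.873 in edgeR's test). It was 0.56 (unadjusted p = 0.0165) without OE replicate 1 and, with the opposite sign, -0.46 (unadjusted p = 0.0346) without OE replicate 2. Nearly all counts were on ENST00000284165.6, from 1979 to 4552 per library, and ENST00000246163.2 had from 21 to 126. *FNTB*, an opposite-strand gene that overlaps *MAX*, had from 458 to 557 counts.

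**Figure D2:**
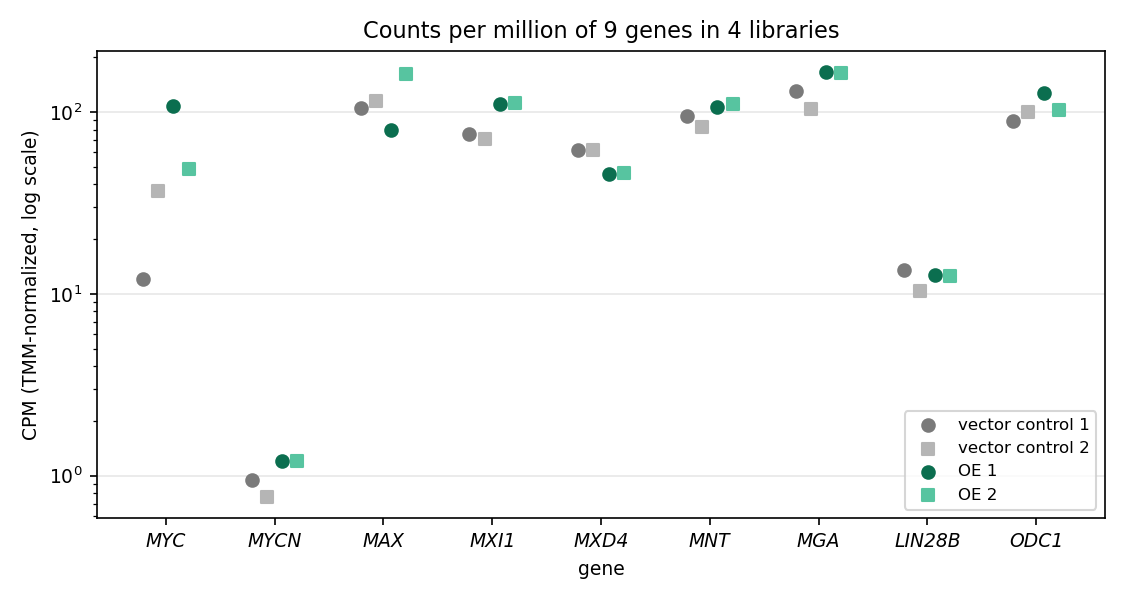
Each point is a library, with TMM-normalized CPM on a log axis, for the 9 genes. *MXI1* and *MXD4* show 2 tight groups, while *MYC* and *MAX* are spread widely within OE.

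Among the antagonists, *MXI1* and *MXD4* had the smallest p of the 9 genes, in opposite directions. *MXI1* (ENSG00000119950.16, plus strand, chr10:111967363-112047123), a MAX dimerization protein that represses MYC targets, had 1754 and 1674 counts in vector control libraries, against 2788 and 3249 in OE. It was at 75.3 and 71.2 CPM in the vector control and at 111 and 112 CPM in OE. The groups did not overlap, and replicates differed by at most 1.06-fold. Mean levels were 73.3 ± 2.89 CPM for the vector control and 112 ± 0.860 CPM for OE (SD, n = 2 each), a 1.52-fold difference. OE over vector control gave a log2 fold change of 0.61 (SE 0.0804, adjusted p = 0.0791, unadjusted p = 0.00211, edgeR's test), and leaving out any 1 library gave 0.56 to 0.64.

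*MXI1* was counted on transcripts from 2 start sites. ENST00000332674.5 starts at 111967363 and has a coding part of 885 bases. ENST00000239007.7 starts downstream at 111985751, has a coding part of 684 bases and shares 2133 exonic bases with the former. The longer one had 1672 and 1222 counts in vector control libraries, against 2061 and 2236 in OE. The shorter one had 82 and 452 counts in vector control libraries, against 727 and 1013 in OE. On both transcripts the OE libraries had more counts than the vector control libraries. The shorter transcript held 4.675% of the *MXI1* counts in vector control replicate 1 (95% Clopper-Pearson interval from 3.735% to 5.77%), 27.0% in vector control replicate 2 (24.9% to 29.2%), 26.1% in OE replicate 1 (24.45% to 27.75%) and 31.2% in OE replicate 2 (29.6% to 32.8%). These intervals treat the placed counts as independent draws. They leave out the spread between libraries, read placement and duplicate reads, and the reads carry no molecular identifiers to tell duplicates. The 2 vector control libraries differed more in this share than vector control replicate 2 differed from OE. On the transcript with the highest mean count alone, the log2 fold change was 0.36 with an unadjusted p of 0.167, so the difference at the gene level includes both transcripts.

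Because counts were placed on transcripts from both starts, the 250 bases before each are shown from hg19. Use of the starts themselves was not tested. No capitals stand in them, since CACGTG occurs in neither.
MXI1 ENST00000332674, chr10:111967113-111967362, plus strand: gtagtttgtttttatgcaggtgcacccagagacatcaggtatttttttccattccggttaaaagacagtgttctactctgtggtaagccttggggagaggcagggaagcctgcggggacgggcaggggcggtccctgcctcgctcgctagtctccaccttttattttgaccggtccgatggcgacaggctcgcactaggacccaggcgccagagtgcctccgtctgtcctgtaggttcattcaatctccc
MXI1 ENST00000239007, chr10:111985501-111985750, plus strand: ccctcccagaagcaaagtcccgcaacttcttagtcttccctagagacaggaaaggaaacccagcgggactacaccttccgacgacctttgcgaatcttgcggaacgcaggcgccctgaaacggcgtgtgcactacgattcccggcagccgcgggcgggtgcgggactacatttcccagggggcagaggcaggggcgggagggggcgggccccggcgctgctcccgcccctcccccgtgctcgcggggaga

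*MXD4* (ENSG00000123933.10, minus strand, chr4:2249159-2263836), another MAX dimerization protein, was the only member with both OE libraries below both vector control libraries. It had 1442 and 1453 counts in vector control libraries, against 1144 and 1332 in OE. The vector control libraries were at 61.9 and 61.8 CPM and the OE libraries at 45.6 and 46.0 CPM. The means were 61.9 ± 0.0634 CPM (SD, n = 2) and 45.8 ± 0.324 CPM (SD, n = 2), a ratio of OE to vector control of 0.740. The log2 fold change was -0.43 (SE 0.0838, adjusted p = 0.117, unadjusted p = 0.00790, edgeR's test). At least 1140 counts per library were on 1 transcript, ENST00000337190.2, and the value lay between -0.44 and -0.43 with each library left out. The 250 bases before the start of that transcript hold 1 E-box at position -238, shown in capitals.
MXD4 ENST00000337190, chr4:2263837-2264086, minus strand: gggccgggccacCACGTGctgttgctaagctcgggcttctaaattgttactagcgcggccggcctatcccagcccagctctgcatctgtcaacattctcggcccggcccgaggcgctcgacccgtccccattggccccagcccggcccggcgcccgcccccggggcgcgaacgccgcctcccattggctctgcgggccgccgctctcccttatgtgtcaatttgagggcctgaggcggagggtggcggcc

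*MGA* (ENSG00000174197.12, plus strand, chr15:41913332-42065279), which encodes a large repressor that dimerizes with MAX, had 3033 and 2453 counts in vector control libraries, against 4172 and 4746 in OE. It was at 130 and 104 CPM in the vector control and at 166 and 164 CPM in OE, with no overlap. OE over vector control gave a log2 fold change of 0.49 (SE 0.134, adjusted p = 0.178, unadjusted p = 0.0238, edgeR's test). With an OE library left out the value was about as large, at 0.48 (unadjusted p = 0.0791) without replicate 1 and 0.50 (unadjusted p = 0.0746) without replicate 2. It was 0.66 (unadjusted p = 0.00579) without vector control replicate 1 and 0.34 (unadjusted p = 0.0292) without vector control replicate 2. In OE replicate 1, 1461 of the 4172 counts were on ENST00000389936.4, which had 0 counts in the other 3 libraries. On ENST00000219905.7 alone, counts were 3033 and 2453 in the vector control and 2701 and 4746 in OE, which overlap, with a log2 fold change of 0.21 and an unadjusted p of 0.507. The *MGA* difference includes counts whose placement differed between the OE libraries.

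*MNT* (ENSG00000070444.10, minus strand, chr17:2287367-2304398), a repressor found in most cell types, had 2208 and 1953 counts in vector control libraries, against 2666 and 3189 in OE. It was at 94.8 and 83.1 CPM in the vector control and at 106 and 110 CPM in OE. The OE libraries were above the vector control libraries, and the log2 fold change was 0.28 (SE 0.103, adjusted p = 0.250, unadjusted p = 0.0549, edgeR's test). Leaving out vector control replicate 1 gave 0.37 (unadjusted p = 0.0369), and leaving out vector control replicate 2 gave 0.19 (unadjusted p = 0.154). From 279 to 442 counts per library were on ENST00000575402.1, a transcript of 1 exon that shares no exonic base with the main one.

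The target *ODC1* (ENSG00000115758.8, minus strand, chr2:10580094-10588453) had 2088 and 2339 counts in vector control libraries, against 3187 and 2982 in OE. These were 89.7 and 99.5 CPM against 127 and 103 CPM. The groups did not overlap, but vector control replicate 2 and OE replicate 2 lay close together. The log2 fold change was 0.28 (SE 0.142, adjusted p = 0.360, edgeR's test), with a 95% interval from -0.12 to 0.69. It was 0.12 without OE replicate 1 and 0.42 (unadjusted p = 0.0421) without OE replicate 2.

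*LIN28B* (ENSG00000187772.6, plus strand, chr6:105384491-105531207) had 314 and 244 counts in vector control libraries, against 320 and 363 in OE, all on its only listed transcript. On the CPM scale it was at 13.5 and 10.4 in the vector control and at 12.8 and 12.5 in OE. The OE libraries lay between the vector control libraries. OE over vector control gave a log2 fold change of 0.08 (SE 0.180, adjusted p = 0.833, edgeR's test), and the 95% interval from -0.43 to 0.60 is the range of differences that these libraries leave possible. Without vector control replicate 2 the sign turned, to -0.10. The antisense gene on its exons, listed as *LINC00577*, had 0 counts in both vector control libraries and 12 and 6 counts in OE. The 250 bases before the start hold 1 E-box at position -47.
LIN28B ENST00000345080, chr6:105404732-105404981, plus strand: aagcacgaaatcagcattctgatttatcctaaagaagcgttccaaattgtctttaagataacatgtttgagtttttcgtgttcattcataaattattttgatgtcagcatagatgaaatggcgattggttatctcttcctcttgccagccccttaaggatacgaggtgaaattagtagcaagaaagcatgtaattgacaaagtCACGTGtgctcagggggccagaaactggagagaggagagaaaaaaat
Of the 9 genes, *MAX*, *MXD4*, *MNT* and *LIN28B* had CACGTG in the 250 bases before the start of their highest counted transcript, against 7.04% of the 19123 tested genes with a start site. These 4 genes did not share a direction.

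**Figure D3:**
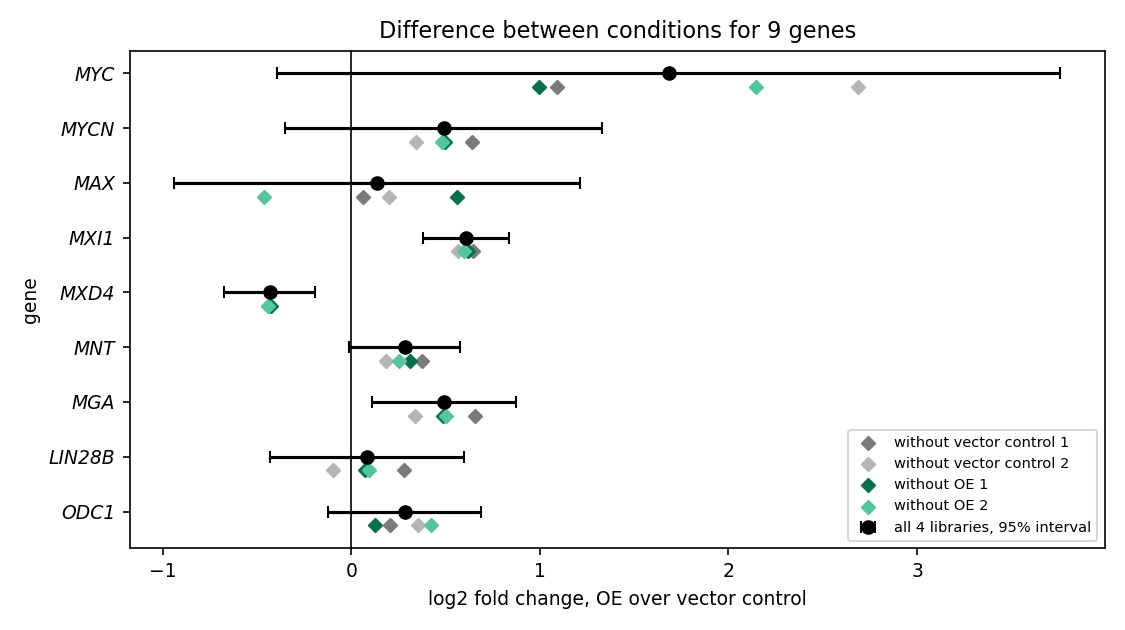
Log2 fold change of OE over vector control for each gene, with its 95% interval from edgeR's standard error (black), and the values with 1 library left out (diamonds). The values of *MXI1* stay between 0.56 and 0.64 and those of *MXD4* between -0.44 and -0.43, while *MAX* and *LIN28B* cross 0.

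With the cutoffs used in the study (adjusted p below 0.01, log2 fold change beyond 0.5 either way), edgeR's test called 0 of the 9 genes, and 0% of all tested genes. The study applied these cutoffs with DESeq2. *RP5-998N21.4* itself, at a log2 fold change of 6.11 and an adjusted p of 0.0109 in edgeR's test, was not called either. The 0 therefore does not show that the 9 genes were unchanged. At an unadjusted p under 0.05, 4269 of all tested genes (20.8%) differed, and among the 9 genes *MXI1* and *MGA* were higher and *MXD4* was lower, or 33.3%. Over all tested genes the share was 10.1% higher and 10.7% lower. The groups did not overlap in 7 of the 9 genes, 6 higher and 1 lower, beside 55.4% of all tested genes (27.8% higher and 27.6% lower). The median log2 fold change of the 9 genes was 0.28, beside 0.01 for all tested genes. For a design of this size, the smallest two-sided p of an exact permutation test is 0.333. The Wald test of DESeq2 called *MXI1* with the same cutoffs (adjusted p = 2.5e-14), beside 8.77% of all tested genes. *MXD4* and *MGA* had adjusted p of 3.7e-07 and 0.00683 in DESeq2, with absolute log2 fold changes under 0.5.

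The levels of different genes were compared per transcript length, as TPM (counts per base of the transcripts they were placed on, scaled to the same sum in each library). In the vector control the order was *ODC1* at 76.4 ± 4.18 TPM (SD, n = 2 here and for the values that follow), *MAX* at 73.9 ± 0.771, *MXI1* at 45.0 ± 0.245, *MNT* at 41.1 ± 4.67, *MXD4* at 32.5 ± 0.652, *MYC* at 23.7 ± 16.5, *MGA* at 19.5 ± 3.40, *LIN28B* at 4.39 ± 0.888 and *MYCN* at 0.655 ± 0.109 TPM. The libraries of *ODC1* and *MAX* overlapped, as did those of *MXD4* and *MYC* and those of *MYC* and *MGA*. *MXI1* and *MNT* were nearly level, at 44.9 and 44.4 TPM in replicate 1. *LIN28B* stood below *MGA* and above *MYCN* in every library. In OE, *MYC* moved to the fourth place, at 72.4 ± 31.5 TPM, and the other genes kept their order apart from *MXD4* and *MNT* each lying 1 place lower. The OE libraries of *ODC1* and *MAX*, *MAX* and *MXI1*, *MXI1* and *MYC*, *MYC* and *MNT*, and *MXD4* and *MGA* overlapped, so these neighbours had no clear order. The *MGA* level of OE replicate 1 leaves out the transcript ENST00000389936.4, which had no length in the annotation used. That transcript held 1461 of the 4172 *MGA* counts in this library, so the order and overlap of *MXD4* and *MGA* in OE are uncertain.

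**Figure D4:**
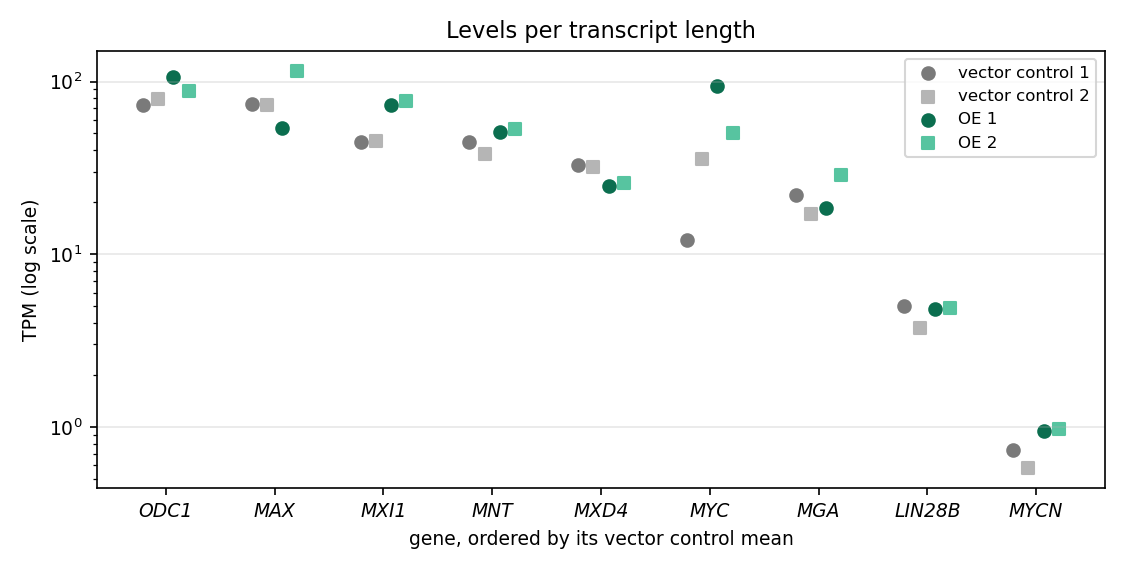
TPM of each gene in the 4 libraries on a log axis, ordered by the vector control mean. *MYC* covers the range from 12.0 to 94.7 TPM, and *MYCN* stays under 1 TPM in every library.

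Summed over *MYC*, *MYCN* and *MYCL*, the level was 13.3 and 36.6 TPM in the vector control and 98.6 and 53.0 TPM in OE. Summed over *MXI1*, *MXD4*, *MNT* and *MGA*, it was 144 and 132 TPM in the vector control and 168 and 185 TPM in OE. The MYC-type genes stood to these antagonists at ratios of 0.0923 and 0.277 in the vector control and 0.588 and 0.287 in OE. The antagonist sum of OE replicate 1 leaves out 1461 *MGA* counts on a transcript without a length, so its ratio of 0.588 is too high. *MXD1* plus *MXD3*, not in this sum, were at 50.7 and 53.9 TPM in the vector control and at 74.7 and 70.1 TPM in OE. The ratios of vector control replicate 2 and OE replicate 2 were nearly equal, so the highest ratio belonged to the OE library with the other *MYC* transcript.

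Of the other network genes, 5 of 6 were tested, with 1 higher and 0 lower at an unadjusted p under 0.05 (20% beside 20.8% of all tested genes). That gene was *MYCL*, a MYC paralog, named here after its values were seen. It was at 0.859 and 1.06 CPM in the vector control and at 4.46 and 2.80 CPM in OE (log2 fold change 1.91, adjusted p = 0.111, edgeR's test), on at most 112 counts. *MLXIPL* did not pass the filter.

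Of the 40 canonical MYC targets beside *ODC1*, 38 were tested, and 10 were higher and 4 lower at an unadjusted p under 0.05, a share of 36.8% beside 20.8% of all tested genes. Their median log2 fold change was 0.20. *HK2*, a hexokinase, was at 85.8 and 85.1 CPM in the vector control and at 146 and 151 CPM in OE (log2 fold change 0.80, adjusted p = 0.0615, edgeR's test). *SHMT2*, the mitochondrial serine hydroxymethyltransferase, was at 20.4 and 18.3 CPM in the vector control and at 30.5 and 29.7 CPM in OE (log2 fold change 0.64, adjusted p = 0.106, same test). *LDHA*, the lactate dehydrogenase subunit of glycolysis, went the other way. Its libraries were at 410 and 404 CPM in the vector control and at 216 and 225 CPM in OE (log2 fold change -0.88, adjusted p = 0.0396, same test). It was the only target with an adjusted p under 0.05, where 0.594% of all tested genes stood. *PKM*, which encodes the last enzyme of glycolysis, was at 955 and 1054 CPM in the vector control and at 731 and 625 CPM in OE (log2 fold change -0.57, adjusted p = 0.113). *NME1*, a nucleoside diphosphate kinase gene, was at 40.2 and 47.3 CPM in the vector control and at 25.7 and 23.0 CPM in OE (log2 fold change -0.84, adjusted p = 0.0980), and its neighbour *NME2*, which is similar in sequence, had 0 counts in every library, so the *NME1* value is uncertain.

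Around *ODC1*, 18 genes of polyamine metabolism were tested, with 1 higher and 1 lower at an unadjusted p under 0.05 and a median log2 fold change of -0.01. This share of 11.1% lay below the 20.8% of all tested genes. *AMD1*, the decarboxylase that supplies the aminopropyl groups, was at 150 CPM in both vector control libraries and at 188 and 204 CPM in OE (log2 fold change 0.38, adjusted p = 0.120, edgeR's test). *OAZ1*, the antizyme that targets ornithine decarboxylase for degradation, was at 321 and 329 CPM in the vector control and at 289 and 282 CPM in OE (log2 fold change -0.19, adjusted p = 0.198, same test).

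Around *LIN28B*, 9 of the 11 genes of LIN28 and let-7 processing were tested, with 1 higher and 0 lower, a share of 11.1% against 20.8% of all tested genes. *XPO5*, the exporter of microRNA precursors, was at 70.9 CPM in both vector control libraries and at 99.0 and 98.5 CPM in OE (log2 fold change 0.48, adjusted p = 0.0954, edgeR's test). *LIN28A* had from 4 to 12 counts per library. The 12 let-7 and miR-98 hairpin genes had at most 17 counts each, with sums of 25 and 48 counts in vector control libraries, against 42 and 56 in OE. A library of long RNA fragments does not measure mature microRNAs, so let-7 levels are not known here. Of 16 let-7 targets, 15 were tested, with 1 higher and 2 lower and a median log2 fold change of -0.08. That share, 20%, was near the 20.8% of all tested genes. The higher one was *CDK6*, at 570 and 521 CPM in the vector control and at 747 and 782 CPM in OE (log2 fold change 0.49, adjusted p = 0.0812). *CCND1*, the cyclin that works with it, was at 1123 and 1157 CPM in the vector control and at 826 and 863 CPM in OE (log2 fold change -0.43, adjusted p = 0.0662). *E2F2*, an activator of S-phase genes, was at 22.7 and 25.8 CPM in the vector control and at 16.3 and 14.7 CPM in OE (log2 fold change -0.64, adjusted p = 0.128).

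Of the genes that regulate MYC proteins or lie beside *MYCN* or *MYC*, 11 of 12 were tested, with 1 higher and 1 lower at an unadjusted p under 0.05, or 18.2%, near the 20.8% of all tested genes. *AURKA*, a kinase that protects MYCN from degradation, was at 17.8 and 19.5 CPM in the vector control and at 10.0 and 11.4 CPM in OE (log2 fold change -0.80, adjusted p = 0.103, edgeR's test). *FBXW7*, the ubiquitin ligase subunit that marks MYC proteins for degradation, was at 29.8 ± 0.584 CPM in the vector control and 37.7 ± 2.37 CPM in OE (SD, n = 2 each), with no overlap (log2 fold change 0.34, adjusted p = 0.198). Of 15 genes of the MGA complex PRC1.6 and the SIN3 corepressors, 14 were tested, with 0 higher and 1 lower, or 7.14% against 20.8% of all tested genes. The lower gene was *SIN3A*, the scaffold through which MXD and MXI proteins repress, at 139 and 98.1 CPM in the vector control and at 64.4 and 58.8 CPM in OE (log2 fold change -0.94, adjusted p = 0.134).

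**Figure D5:**
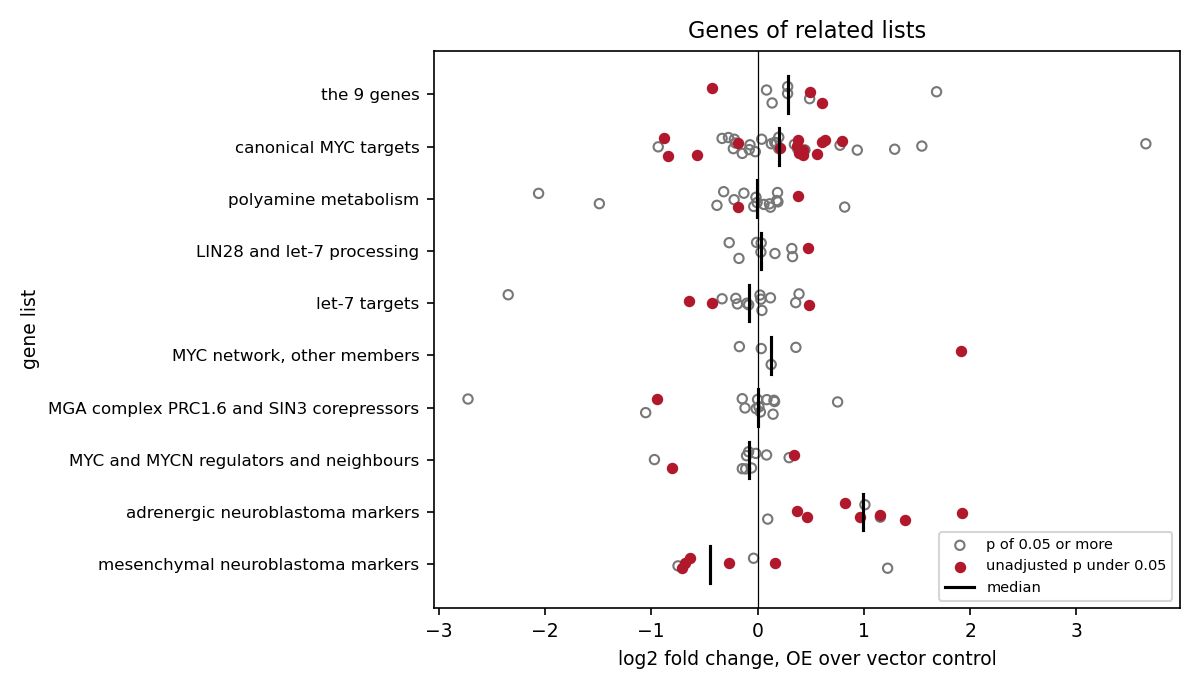
Each point is a tested gene, placed by its log2 fold change of OE over vector control, with the genes at an unadjusted p under 0.05 filled and the list medians as bars. The MYC targets lie on both sides of 0 around a median of 0.20, and the adrenergic markers lie above 0 around a median of 0.99.

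The genes whose 4 centred log2(CPM + 1) values were nearest to those of *MYC* were *MSL3* and *USP10*, at Euclidean distances of 0.263 and 0.440 among the 11457 genes whose mean reached 10 CPM. For *LIN28B* they were *SYT14*, *ARID2* and *AK5*, at 0.0185 to 0.0346. The flat pattern of *LIN28B* is a common one, since 6987 genes lay within 0.5 of it, while 2 genes lay within 0.5 of *MYC*.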

How the data were processed

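RNA-seq counts of 4 SK-N-SH libraries were analysed, 2 per condition, grouped by their labels. The authors trimmed the reads with Trimmomatic, mapped them to hg19 with Bowtie2 (2.0.4 per the labels) and deposited, for each transcript, integer counts that were not normalized. The submitters' processing notes also name Picard 2.21.6, StringTie 2.1.6 and DESeq2. The counting tool, annotation release and strand setting are not given in the sources used here. How a tool places reads on transcripts may move the gene totals used here. Between replicates, the chi-square per degree of freedom over tested genes above a minimum count was 68.2 in the vector control and 79.4 in OE. Both are far above counting error alone, and the cause was not tested.

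Counts of 196520 transcripts were summed per gene. Genes kept by filterByExpr were TMM-normalized and tested with edgeR 4.0.16 (quasi-likelihood, two-sided, no covariates, Benjamini-Hochberg over all tested genes, R 4.3.3). Standard errors are the absolute log2 fold change over the square root of F. DESeq2 1.42.0 (default settings), the test named by the study, and limma-voom (limma 3.58.1) were alternatives. Further ones were other normalizations, filters, a replicate block, left-out libraries, no mitochondrial genes and the highest transcript. The scripts were tested on simulated counts. Library totals ranged from 23785164 to 28307591 counts. A count of 0 was read as at most 3 counts. TPM used lengths from the lifted GENCODE annotation of GRCh37, which held transcripts with 93.2% to 93.7% of the counts. Sequences were read from GRCh37 and RefSeq.

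The 9 genes and the lists were chosen with earlier results of these data known. *MYCL*, *LIN28A*, *VIM*, *SLC7A5* and the genes not tested or listed at 0 were named after their values were seen. The other named list genes had an unadjusted p under 0.05 and a mean of at least 10 CPM, at most 5 per list by smallest p. The 3 genes nearest in pattern to *MYC* and to *LIN28B* were also named, except 1 that is not reported here.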

Additional observations from a re-analysis of the deposited data

How the results depend on the processing

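Across the alternatives, the log2 fold changes of *MXI1*, *MXD4*, *MGA*, *MNT*, *MYCN*, *ODC1* and *MYC* kept their sign wherever they could be fitted. That of *LIN28B* turned to -0.10 without vector control replicate 2, and that of *MAX* to -0.46 without OE replicate 2; leaving out each library gave ranges from -0.10 to 0.28 and from -0.46 to 0.56. The number of genes past both cutoffs of the study was 0 of all tested genes with edgeR, 1800 with DESeq2 on the same genes, 9 with a minimum of 1 count in total and 1 on the transcript with the highest mean count, and 0 with each library left out. The number of the 9 genes at an unadjusted p under 0.05 was 3, against 1 on the transcript with the highest mean count, where *MYC* could not be fitted, and 3 to 4 with each library left out, though not always of the same genes. *MXI1* and *MXD4* passed each time. Leaving out OE replicate 1 or OE replicate 2, *MGA* did not pass and *MAX* passed, higher in the former case and lower in the latter, where *ODC1* passed too. *MNT* passed without vector control replicate 1 and *MYC* without vector control replicate 2. The number was 4 with upper-quartile normalization, DESeq2 and limma-voom, where *MNT* passed too. With the replicate number as a block (replicate block), 3 of the 9 genes and 3060 of all genes had an unadjusted p under 0.05, against 4269 without it, and 0 genes passed both cutoffs. The numbers are only names, since same-numbered deviations correlated at -0.0133 over genes. The cause of these differences was not tested. For *MYCN*, at most 35 counts per library limit what can be seen. *LIN28B* had at most 363 counts per library, and its vector control libraries differed 1.30-fold. Both may limit what can be seen for it.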
